A study of Rattus norvegicus with 12 samples.

Results

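The motile cilia and ependymal genes examined here were 55 genes of the 17494 in the deposited count table. They were every gene whose symbol begins with Dnah, Dnai, Cfap, Rsph, Tekt, Drc or Spag followed by a digit, 49 in all, together with Ccdc153, Ak7, Mlf1, Foxj1, Tmem212 and Rarres2. Pifo, also named by the rule, was not analysed here. The list was proposed with results of these same libraries known, so the differences between treatments given for its members are a description and are not tested as a list. By role, the members were 17 Cfap genes, 12 Spag genes, 7 radial spoke genes, 5 tektins, 4 dynein intermediate chains, 4 genes of the nexin-dynein regulatory complex, 1 dynein heavy chain (Dnah1) and 5 markers of ependymal or ciliated cells.

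RNA was measured in 12 male wild-type Long Evans rats, all exposed to 3 blasts delivered on successive days from 10 weeks of age and killed 29 weeks afterwards. Boldine, a plant alkaloid, was mixed into the chow of 6 rats at 500 mg/kg from the second week after blast to the end (blast-boldine), and the other 6 were given chow that lacked it (blast-control). No rat in these libraries was spared the blast, so the comparison is of treatment among exposed rats alone. The labels give the tissue as brain and the study's methods as hippocampus, and each rat gave 1 stranded library of total RNA depleted of ribosomal RNA. Boldine was taken in food, and the dose each rat received was not analysed here.

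Motile cilia are hair-like organelles that beat, and in the brain they cover the ependymal cells that line the ventricles. The epithelium of the choroid plexus also carries cilia. Each motile cilium of the ependyma is built on a ring of doublet microtubules around a central pair. Dynein arms on the doublets drive the beat, radial spokes and the nexin-dynein regulatory complex coordinate it, and tektins and other inner proteins stiffen the doublets. Foxj1 and RFX factors switch on the genes of this programme.

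Library totals lay between 10148474 and 40850106 counts in 11 rats (median 17720959), and the total was 74008 in blast-control rat 6. In rat 6 the members held 111 counts, 36 of them were at 0, and 3 counts, taken as the smallest detected value, were worth 47.5 CPM (counts scaled to the TMM-adjusted library total), against 0.0658 to 0.307 CPM in the other rats. These floors, and the intervals given below, cover counting error only. Levels are therefore given for 11 rats, with 5 blast-controls, and fold changes for all 12 rats unless rat 6 is said to be left out. Library names and the other genes of the table also divide the rats into 2 sets of libraries. Set A held rats 20, 32 and 35 (blast-boldine) and 1, 7 and 9 (blast-control). Set B held rats 12, 17 and 19 (blast-boldine) and 4, 5 and 6 (blast-control). This division was inferred from suffixes of the library names and from 12480 genes outside the list. Each set was assumed to use each suffix 1 time, with rat numbers rising with the suffix, which left 4 divisions. Of these 4 the one used accounted for most of the first principal component of those genes (95.1%). No label states what it is.

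Of the 55 members, 49 passed the filter on low counts. The 6 that did not were Cfap97d1, Spag11a, Spag11b, Spag11bl, Spag16 and Spag6. Spag11a, a defensin-like gene of the epididymis, had no count in any rat. Spag6 and Spag6l, and the Spag11 genes, are near-identical copies, so their counts are uncertain. The ependymal markers were present but not abundant. Foxj1 was detected in every rat but rat 6, at 3.69 to 24.3 CPM, Ccdc153 at 2.05 to 8.6 CPM, Tmem212 at 1.64 to 6.72 CPM and Rarres2 at 10.6 to 19.7 CPM. All 12 neuronal markers examined passed the filter, among them Prox1 of dentate granule cells and Neurod6 of pyramidal cells. In bulk RNA, fewer ependymal cells and less RNA per cell cannot be told apart.

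Not every member belongs to the motile cilium, and several of the most abundant ones have roles outside it. Per kilobase of exon, averaged over 11 rats, the highest level was that of Cfap36, which also binds the small GTPase ARL3, at 111 CPM per kb. Next came Spag9, a scaffold of JNK signalling and vesicle transport, at 81.6 CPM per kb. Cfap298, needed for the assembly of dynein arms, followed at 60.3 CPM per kb and Spag7 at 50.7 CPM per kb. Foxj1, with 5.93 CPM per kb, ranked 20 and Ccdc153, with 3.40 CPM per kb, ranked 31. The median of the 49 tested members was 4.87 CPM per kb and their lowest was Rsph14, at 0.41 CPM per kb. Summed over all members the level was 1569 ± 261 CPM (n = 6, SD) with boldine and 1429 ± 208 CPM (n = 5, SD) without. Spag9 alone made up 39.6% of this sum.

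**Figure D1:**
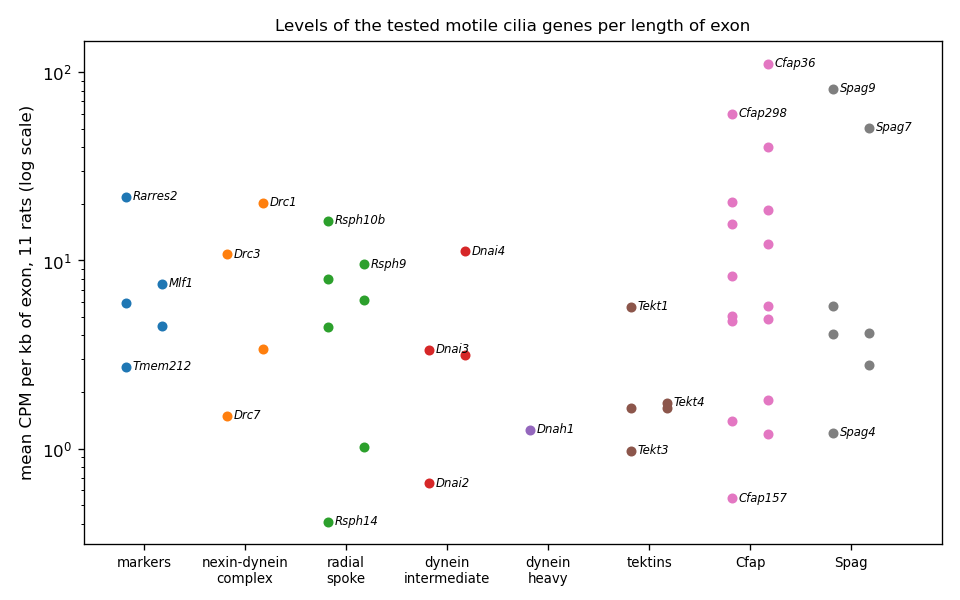
Mean level of each tested member per kilobase of exon over 11 rats (vertical axis, CPM per kb, log scale), grouped by role, each point 1 gene. The 4 highest points are Cfap36, Spag9, Cfap298 and Spag7, from 111 down to 50.7 CPM per kb.

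Promoters of 4 members are shown because they carry, or lack, matches to the motifs searched and because their genes recur in the results that follow. Each is the 250 bases before the RefSeq start site, on the gene's strand, build GRCr8, in lower case, with matches to the motifs searched in capitals. Mlf1 and Tekt1 hold an RFX site and a forkhead core, and Cfap298 holds paired RFX sites that form X-boxes. Drc7 holds no match to the motifs as searched. Looser forms of these motifs were not searched, so a site of such a form could be present in any of the windows. They lie at chr2:153958341-153958590 on the plus strand (Mlf1), chr10:57479122-57479371 on the minus strand (Tekt1), chr11:43677383-43677632 on the minus strand (Cfap298) and chr19:9967193-9967442 on the minus strand (Drc7).
Mlf1: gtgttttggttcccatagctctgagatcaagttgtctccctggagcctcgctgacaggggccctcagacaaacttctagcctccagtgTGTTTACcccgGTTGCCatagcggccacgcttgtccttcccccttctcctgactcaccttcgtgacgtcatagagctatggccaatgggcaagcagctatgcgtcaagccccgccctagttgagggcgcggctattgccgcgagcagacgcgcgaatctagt
Tekt1: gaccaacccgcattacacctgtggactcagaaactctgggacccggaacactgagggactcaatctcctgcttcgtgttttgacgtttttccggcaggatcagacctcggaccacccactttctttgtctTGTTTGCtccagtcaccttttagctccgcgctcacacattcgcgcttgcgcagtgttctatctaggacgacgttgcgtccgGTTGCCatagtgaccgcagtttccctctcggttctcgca
Cfap298: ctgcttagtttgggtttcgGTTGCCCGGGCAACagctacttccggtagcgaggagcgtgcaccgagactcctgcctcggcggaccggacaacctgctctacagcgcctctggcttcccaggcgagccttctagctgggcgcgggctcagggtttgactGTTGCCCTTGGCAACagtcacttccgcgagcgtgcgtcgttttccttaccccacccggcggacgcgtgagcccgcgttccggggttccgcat
Drc7: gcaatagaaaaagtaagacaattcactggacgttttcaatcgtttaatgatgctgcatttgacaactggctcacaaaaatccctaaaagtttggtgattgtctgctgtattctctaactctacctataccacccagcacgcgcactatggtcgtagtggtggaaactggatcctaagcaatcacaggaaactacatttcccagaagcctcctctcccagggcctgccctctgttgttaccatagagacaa

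Promoters were found in RefSeq for 40 of the 55 members, and 3 motifs were searched on both strands. The RFX site GTTGCC occurred in 12 of 40 members' promoters (30.0%) and in 3311 of all 33469 promoters (9.89%). The X-box, an inverted repeat of that site, searched with 1, 2 or 3 free bases at its centre, occurred in 2 of 40 (5.0%), Cfap298 and Cfap20dc, and in 0.693% of all promoters. Many X-boxes contain the RFX site, so the counts overlap. The forkhead core TGTTTAC or TGTTTGC, the letters bound by factors such as Foxj1, occurred in 6 of 40 (15.0%), Cfap20, Mlf1, Spag8, Tekt1, Tekt3 and Tekt4, and in 7.2% of all promoters. These matches describe the letters of the windows and were not set against binding data.

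Compared with blast-controls, blast-boldine rats showed higher fitted levels in 39 of the 49 tested members and lower levels in 10. The median log2 fold change was 0.16, with a range from -0.15 to 1.05, whereas the median over all 12325 genes tested was 0.00. The 7 members with an unadjusted p under 0.05 in edgeR were Ccdc153 and Drc7 of the nexin-dynein regulatory complex, the dynein chain Dnai3, Ak7, Mlf1, Tekt3 and Cfap206, the last chosen, like Tekt3, after its values were seen. By contrast, Foxj1 itself had a log2 fold change of 0.08 (SE 0.45). Of all genes, 51.3% had a log2 fold change above 0. At an unadjusted p under 0.05, 7 of 49 members (14.3%), and 1.07% of all genes were called in edgeR. All 7 were higher in blast-boldine rats, a direction called for 0.552% of all genes. After Benjamini-Hochberg adjustment in edgeR no member and no gene passed 0.05 (0.0% called), and the smallest adjusted p was 1.0. DESeq2 called 5 members at an unadjusted p under 0.05 (0.542% of all genes), 9 without rat 6 (1.78% of all genes), and none after adjustment (0.0% of all genes). Without rat 6 the log2 fold change was above 0 in 40 of 49 members (49.7% of all genes), with a median of 0.23, and 7 members had an unadjusted p under 0.05 (1.4% of all genes). In a step not planned beforehand, 9 members not counted as genes of the motile axoneme by general knowledge were left out. They were Cfap36, Cfap97, Cfap410, Spag4, Spag5, Spag7, Spag9, Mlf1 and Rarres2, most of them with a log2 fold change below 0. Foxj1 and Tmem212, which are not axonemal parts either, stayed in. Of the 40 tested members left, 36 were higher and 4 lower, with a median of 0.26, which follows in part from that choice. Since the list was proposed with these values known, nothing about the list is read from its share against that of all genes.

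**Figure D2:**
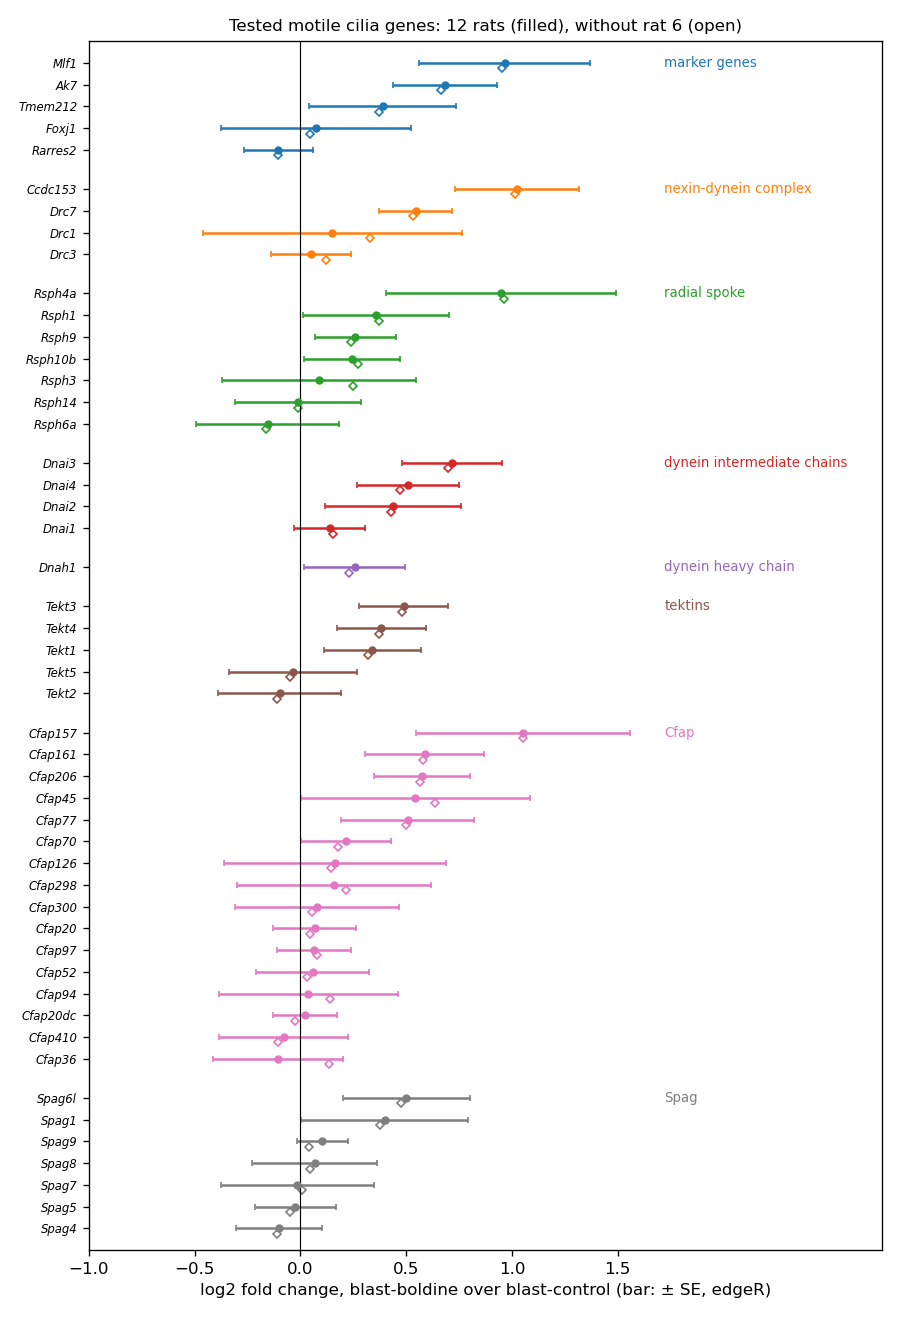
Log2 fold change of each tested member, blast-boldine over blast-control (horizontal axis), by role. Filled points with bars are the edgeR estimate ± SE with 12 rats and open diamonds the estimate without rat 6, and 39 of 49 filled points lie right of 0.

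All 4 members of the nexin-dynein regulatory complex, which links neighbouring doublets, had higher fitted levels in blast-boldine rats, with a median log2 fold change of 0.35. Ccdc153 lies at chr8:44577836-44584341 on the plus strand of mRatBN7.2. It measured 2.54 CPM in the lowest, 5.77 in the median and 8.6 in the highest blast-boldine rat, and 2.43, 3.55, 2.05, 3.09 and 3.75 CPM in blast-control rats 1, 4, 5, 7 and 9. Thus 5 of 6 rats given boldine exceeded the highest control, and rat 35 lay among the controls. It averaged 6.02 ± 2.22 CPM (n = 6, SD) against 2.97 ± 0.725 CPM (n = 5, SD), a log2 fold change of 1.02 (SE 0.29), and of 1.02 (SE 0.30) without rat 6. Drc7, at chr19:9943456-9961163 on the minus strand, ranged from 3.88 to 5.45 CPM with a median of 5.23 in blast-boldine rats. In blast-control rats 1, 4, 5, 7 and 9 it measured 2.85, 3.85, 3.68, 3.3 and 3.17 CPM. Drc7 was the 1 member of 49 whose groups did not overlap without rat 6, the lowest blast-boldine rat measuring 3.88 CPM and the highest blast-control 3.85 CPM, and 0.073% of all genes were separated in this direction. Its log2 fold change was 0.55 (SE 0.17), and 0.53 (SE 0.16) without rat 6. Drc1 and Drc3, of the same complex, overlapped between treatments. Drc3 measured 20.5 ± 1.44 CPM (n = 6, SD) against 18.7 ± 2.31 CPM (n = 5, SD). Drc1 measured 54.8 ± 39.4 CPM (n = 6, SD) against 43.7 ± 35.5 CPM (n = 5, SD), with a log2 fold change of 0.15 (SE 0.61) whose sign changed with DESeq2 and when any of rats 1, 7, 9, 12 or 17 was left out.

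**Figure D3:**
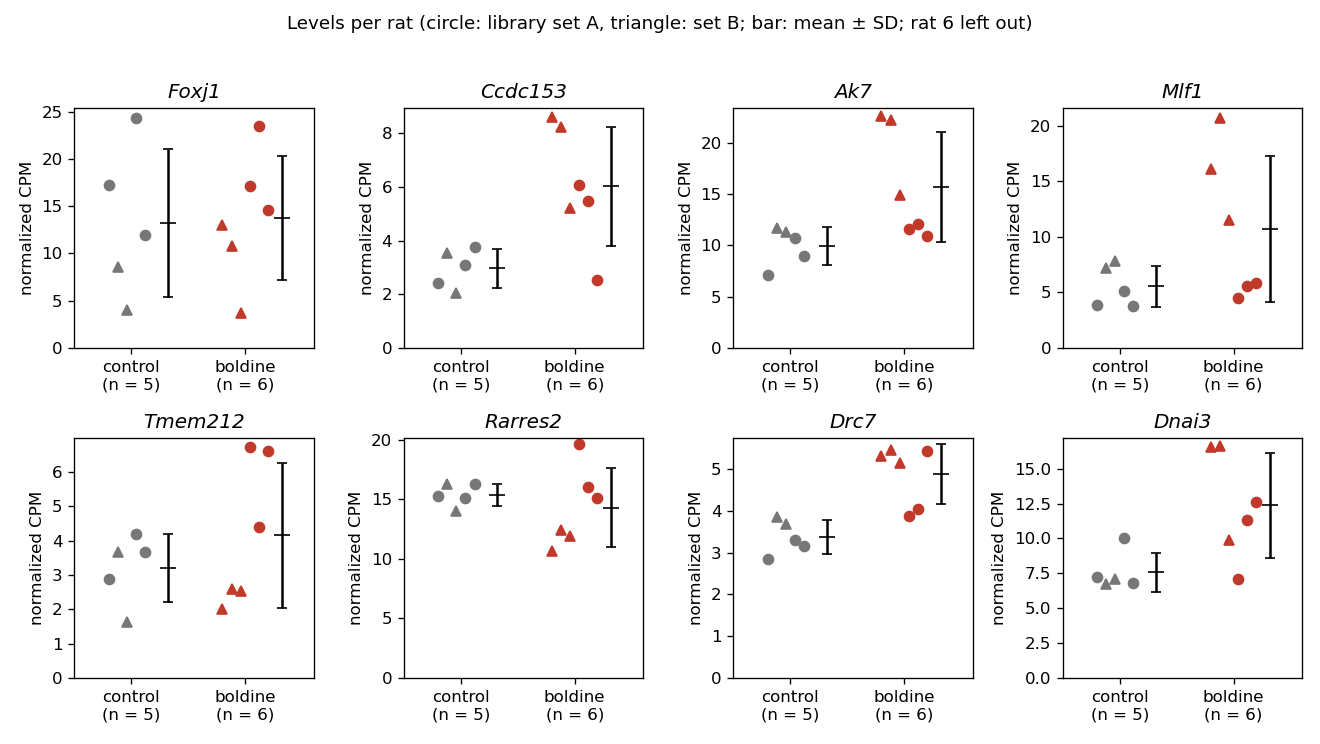
Normalized CPM of 8 members in each of 11 rats (vertical axis), by treatment, circles for library set A and triangles for set B, with bars for the mean ± SD of each group. For Drc7 all 6 rats given boldine lie above the highest control, for Ccdc153 5 of 6 do, and for Foxj1 the groups overlap throughout.

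Among the 5 marker genes, 4 had a log2 fold change above 0 and Rarres2 did not. Ak7, an adenylate kinase of the axoneme at chr6:124611902-124679970 on the plus strand, ranged from 10.9 to 22.6 CPM with a median of 13.5 in blast-boldine rats, and measured 7.11, 11.6, 11.3, 10.7 and 8.92 CPM in blast-control rats 1, 4, 5, 7 and 9. Its means were 15.7 ± 5.35 CPM (n = 6, SD) against 9.92 ± 1.89 CPM (n = 5, SD), a log2 fold change of 0.68 (SE 0.25), and 4 of 6 rats given boldine exceeded the highest control. Mlf1, a gene of ciliated and blood-forming cells at chr2:151648540-151681652 on the plus strand, ranged from 4.51 to 20.7 CPM with a median of 8.7 in blast-boldine rats. In the same blast-controls it measured 3.86, 7.2, 7.78, 5.08 and 3.75 CPM. The blast-boldine values of Mlf1 fell apart by library set, with 16.1, 20.7 and 11.5 CPM in rats 12, 17 and 19 of set B and 4.51, 5.55 and 5.87 CPM in rats 20, 32 and 35 of set A. Its log2 fold change was 0.97 (SE 0.40).

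Foxj1, the transcription factor that drives the motile cilia programme, lies at chr10:101566304-101570230 on the minus strand. It ranged from 3.69 to 23.5 CPM with a median of 13.8 in blast-boldine rats, and measured 17.2, 8.59, 3.99, 24.3 and 12 CPM in blast-control rats 1, 4, 5, 7 and 9. The groups overlapped over nearly their whole range, with means of 13.8 ± 6.58 CPM (n = 6, SD) against 13.2 ± 7.87 CPM (n = 5, SD). The sign of its log2 fold change turned when rat 4, 5 or 32 was left out (-0.15 to 0.41 over all single rats). Tmem212, a membrane protein used as an ependymal marker, measured 4.15 ± 2.11 CPM (n = 6, SD) against 3.2 ± 0.993 CPM (n = 5, SD), a log2 fold change of 0.39 (SE 0.35). Rarres2, which encodes the secreted chemoattractant chemerin, measured 14.3 ± 3.32 CPM (n = 6, SD) against 15.4 ± 0.94 CPM (n = 5, SD), with a log2 fold change of -0.10 (SE 0.16). It shares 313 exon bases with Lrrc61 on the opposite strand, and the counting was by strand.

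The motor subunits were represented by 4 intermediate chains and Dnah1, and all 5 had a log2 fold change above 0. Dnai3, an inner arm intermediate chain at chr2:234947910-235006173 on the minus strand, ranged from 7.12 to 16.7 CPM with a median of 12 in blast-boldine rats and measured 7.24, 6.71, 7.06, 10 and 6.83 CPM in blast-control rats 1, 4, 5, 7 and 9. Its means were 12.4 ± 3.76 CPM (n = 6, SD) against 7.57 ± 1.37 CPM (n = 5, SD), with 4 of 6 rats given boldine above the highest control and a log2 fold change of 0.72 (SE 0.23). Dnai4, the other inner arm intermediate chain, measured 33.9 ± 10.5 CPM (n = 6, SD) against 24.4 ± 4.32 CPM (n = 5, SD), a log2 fold change of 0.51 (SE 0.24). Dnai1 and Dnai2, the intermediate chains of the outer arm, showed smaller differences, 0.14 (SE 0.17) and 0.44 (SE 0.32) on the log2 scale. Dnah1, an inner arm heavy chain and the one heavy chain measured here, had 17.3 ± 3.19 CPM (n = 6, SD) against 14.8 ± 4.78 CPM (n = 5, SD), a log2 fold change of 0.26 (SE 0.24).

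The radial spokes, whose heads contact the central pair, had 5 of 7 members above 0 with a median log2 fold change of 0.24. Rsph10b measured 50.6 ± 16.3 CPM (n = 6, SD) against 41.9 ± 9.14 CPM (n = 5, SD), and Rsph9 9.13 ± 1.4 CPM (n = 6, SD) against 7.69 ± 1.66 CPM (n = 5, SD). The groups overlapped for both genes. The lowest fold change of any member was that of Rsph6a, -0.15 (SE 0.34), a spoke head gene known from sperm, whose sign turned without rat 5. Of the tektins, 3 of 5 were above 0, with a median of 0.34. Tekt1 measured 8.63 ± 2.02 CPM (n = 6, SD) against 6.84 ± 1.94 CPM (n = 5, SD), and Tekt4 2.96 ± 0.714 CPM (n = 6, SD) against 2.27 ± 0.463 CPM (n = 5, SD). Tekt3, chosen after its values were seen, lay at 1.79 to 2.12 CPM in the 6 blast-boldine rats and at 1.21, 1.18, 1.13, 1.2 and 2.25 CPM in blast-control rats 1, 4, 5, 7 and 9. Rat 9, the highest of all, thus set the overlap of its groups.

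Among the Cfap genes 14 of 16 tested were above 0, with a median log2 fold change of 0.12, and among the Spag genes 4 of 7, with a median of 0.07. The abundant members of both families overlapped between treatments. Cfap36 measured 166 ± 44.0 CPM (n = 6, SD) against 152 ± 47.8 CPM (n = 5, SD), and its log2 fold change was -0.10 (SE 0.31) with rat 6 and 0.13 (SE 0.23) without it. Cfap298 measured 74.2 ± 40.8 CPM (n = 6, SD) against 64.0 ± 44.8 CPM (n = 5, SD). Spag9 measured 605 ± 36.0 CPM (n = 6, SD) against 587 ± 37.8 CPM (n = 5, SD), the narrowest spread of any tested member, with 1.18-fold between its highest and lowest rat. Spag7 measured 62.1 ± 27.8 CPM (n = 6, SD) against 61.8 ± 32.3 CPM (n = 5, SD). Spag4, a SUN domain gene of the nuclear envelope, had a log2 fold change of -0.10 (SE 0.20). The largest fold change of the list was that of Cfap157, a basal body gene chosen after its values were seen, at 1.05 (SE 0.51), from levels of at most 2.48 CPM. In rat 9 it had 2 counts, under the 3 counts taken as detected.

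Many members differed between the library sets. The sets were picked for a large difference among these same libraries, so the adjusted p between them are a description. Set B against set A, without rat 6 and with treatment in the fit, passed an adjusted p of 0.05 in edgeR for 25 of 49 members (51.0%), beside 68.2% of all genes. Of these, 19 were higher in set B (34.7% of all genes) and 6 lower (33.5% of all genes). The largest difference was in Drc1, at 67.5 to 102 CPM in the blast-boldine rats of set B and 18.1 to 22.2 CPM in those of set A, a log2 difference of 2.01 (SE 0.18, adjusted p = 8.34e-07 in edgeR). Cfap45, Cfap298, Mlf1 and Spag7 were also higher in set B, by 1.73, 1.59, 1.29 and 1.28 on the log2 scale. Foxj1 was lower in set B, with a log2 difference of -1.20 (SE 0.31, adjusted p = 0.00428 in edgeR), as were Tmem212, Tekt5, Cfap410, Cfap20 and Rarres2. Foxj1 and Drc1 thus differed in opposite directions across the sets. Over 11 rats the highest value of a tested member was 3.04 times the lowest in the median, against 2.0 times over all tested genes. What set the libraries apart was not tested.

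Within each set the treatment groups were compared again without rat 6. Of the tested members, 34 of 50 were higher in set A, with a median log2 fold change of 0.07 (51.3% of all genes were higher), and 39 of 49 in set B, with a median of 0.35 (48.6% of all genes). In set A (3 rats against 3) the mean log2 level was above that of the blast-controls by 0.51 for Ccdc153, 0.49 for Drc7, 0.39 for Ak7 and 0.34 for Dnai3. In set B (3 rats against 2) the differences for the same genes were 1.37, 0.48, 0.77 and 1.01. Drc7 thus differed by nearly the same amount in both sets. The estimates for Ccdc153, Ak7 and Dnai3 were larger in set B, but none of these 3 had an unadjusted p under 0.05 for the interaction of treatment and set in edgeR. Without overlap between groups, blast-boldine was the higher group for 3 members in set A, Ak7, Tmem212 and Drc7 (2.91% of all genes), and for 15 members in set B (10.9% of all genes). It was the lower group for 0 members in set A (3.98% of all genes) and for 2 in set B, Spag4 and Rarres2 (11.5% of all genes). Of the 49 members, 29 had a higher mean log2 level in blast-boldine rats in both sets (28.5% of all genes) and 2, Spag7 and Rsph6a, a lower one in both (23.5% of all genes). With the set as a covariate, 12 members had an unadjusted p under 0.05 with all rats (3.85% of all genes) and 10 without rat 6 (5.35% of all genes). None passed adjustment in edgeR in either fit (0.0% of all genes).

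**Figure D4:**
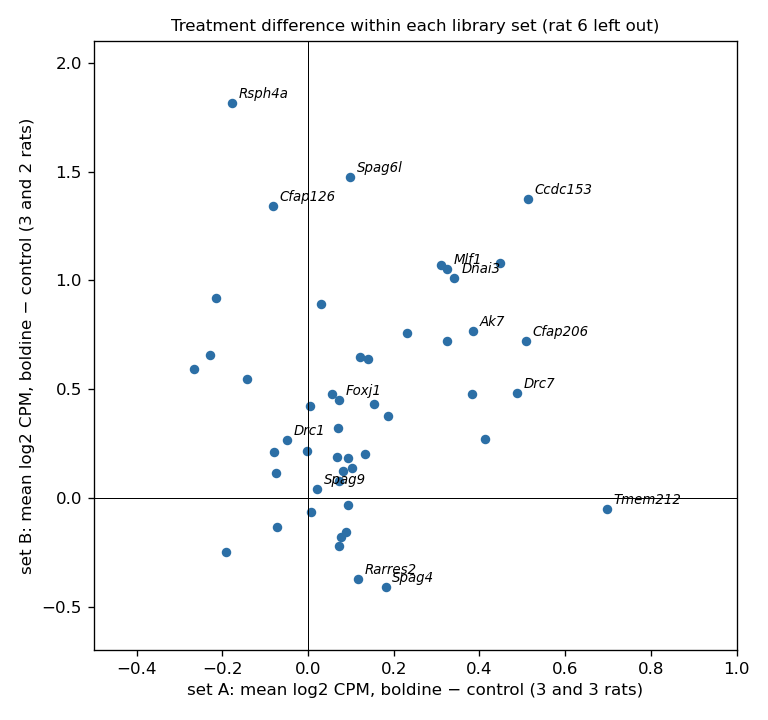
Difference in mean log2 CPM, blast-boldine minus blast-control, of each tested member in library set A (horizontal axis, 3 and 3 rats) and set B (vertical axis, 3 and 2 rats), without rat 6. Ccdc153, Drc7, Ak7, Dnai3 and Mlf1 lie right of 0 and above 0, and Rsph4a and Cfap126 lie left of 0 and above 0.

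The interaction of treatment and set reached an unadjusted p under 0.05 for 5 members, Spag6l, Dnai4, Rarres2, Mlf1 and Rsph4a, beside 5.64% of all genes, and for none after adjustment in edgeR (0.0% of all genes, smallest adjusted p among members 0.881). Rsph4a, a spoke head gene chosen after its values were seen, differed by -0.18 in set A and by 1.82 in set B. In set B it measured 31.1 and 23.0 CPM in rats 12 and 17, and 3.75 to 5.08 CPM in rats 4, 5 and 19. In set A its highest values, 12.9, 10.6 and 8.23 CPM, were those of rats 7, 32 and 1.

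Those 5 rats also carried the most RNA of the choroid plexus, the ciliated epithelium that makes cerebrospinal fluid. The summed level of 17 choroid plexus markers was 2938, 2289 and 2228 CPM in blast-boldine rats 12, 17 and 32 and 1486 and 3153 CPM in blast-control rats 1 and 7. It was 307 to 486 CPM in the other 6 rats, without rat 6. Ttr, transthyretin, the defining product of this epithelium, was at 494 to 893 CPM in the former and at 4.38 to 38.8 CPM in the latter. The mean sum in blast-boldine rats was 5.88 times that of the blast-controls in set B and 0.61 times in set A. Of 15 tested markers 13 were above 0 in the comparison of treatments with all rats, with a median log2 fold change of 0.32. None had an unadjusted p under 0.05 in edgeR. Within set A, however, 0 of 17 were above 0 (median -1.05), and within set B, without rat 6, all 17 were (median 5.67). The interaction of treatment and set reached an unadjusted p under 0.05 in edgeR for 13 of 17, beside 5.64% of all genes. None passed adjustment.

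In set B, rats 12 and 17 held the highest values for 28 of 49 members (57.1%), Ccdc153, Ak7, Mlf1, Drc7 and Dnai3 among them, beside 10.8% of all genes. Both rats were given boldine, and the list was proposed with its differences between treatments known. Choroid plexus RNA and treatment thus cannot be told apart by this count in set B. In set A, rats 1, 7 and 32 did so for 14 of 49 (28.6%), beside 12.1% of all genes. Both held for 9 members (18.4%), Foxj1, Dnai4, Rsph1, Rsph4a, Spag1, Cfap52, Cfap70, Cfap126 and Cfap300, beside 2.41% of all genes. Foxj1 was highest in these rats within each set, with 24.3, 23.5 and 17.2 CPM in rats 7, 32 and 1 against 12 to 17.1 CPM in the other rats of set A. In set B it measured 13 and 10.8 CPM in rats 12 and 17 against 3.69 to 8.59 CPM in the others. Ccdc153 was not highest in these rats in set A, where rat 20 had 6.09 CPM with 353 CPM of choroid plexus markers and rat 7 had 3.09 CPM with 3153 CPM. In set B, rat 19, with 311 CPM of choroid plexus markers, had 5.23 CPM of Ccdc153 against 3.55 and 2.05 CPM in rats 4 and 5. The part of choroid plexus RNA in the treatment differences was not tested.

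**Figure D5:**
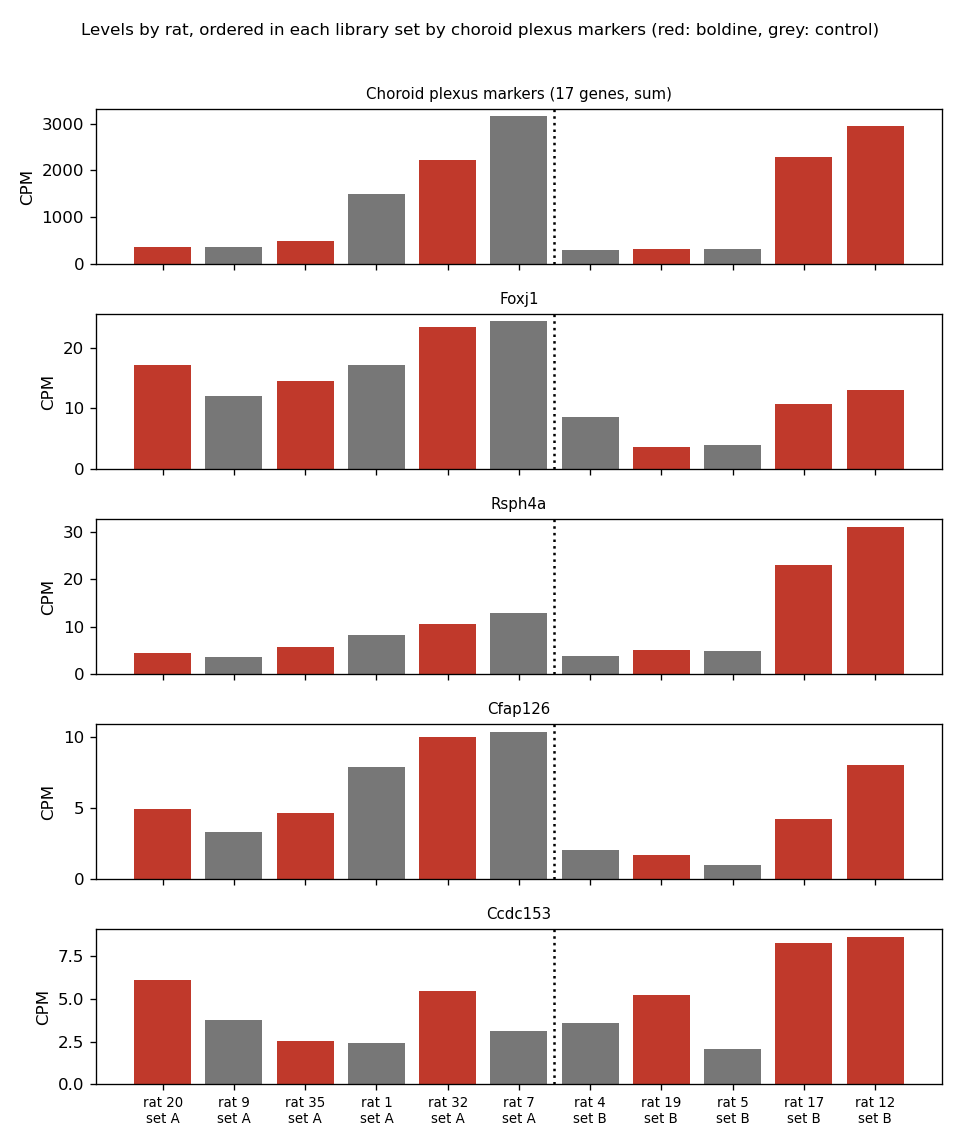
Summed level of 17 choroid plexus markers and levels of Foxj1, Rsph4a, Cfap126 and Ccdc153 (vertical axes, CPM) in 11 rats, ordered within each library set by the choroid plexus sum, red bars blast-boldine and grey bars blast-control. Foxj1, Rsph4a and Cfap126 are highest in rats 1, 7 and 32 of set A and rats 12 and 17 of set B, and Ccdc153 is not highest in those rats in set A.

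Other genes of the pathway were counted from lists written from general knowledge. Of 32 tested genes of the motile cilium that the rule does not name, 27 were above 0 in the comparison of all rats and 5 below, with a median log2 fold change of 0.20 and 2 at an unadjusted p under 0.05, Ropn1l and Ttc29 (1.07% of all genes). Within set A, however, 12 of these 32 genes were above 0 and 20 below, with a median of -0.04, and within set B 26 were above and 6 below, with a median of 0.42. Dnal1, an outer arm light chain and the most abundant of them, measured 54.3 ± 20.5 CPM (n = 6, SD) against 45.3 ± 17.8 CPM (n = 5, SD). The regulators of the multiciliated programme had 7 of 7 tested genes above 0, with a median of 0.06, but 6 of 7 without rat 6, 1 of 7 within set A (median -0.05) and 5 of 7 within set B without rat 6 (median 0.09). The most abundant, Trrap, measured 427 ± 160 and 418 ± 153 CPM (n = 6 and 5, SD). Genes of the primary cilium and of intraflagellar transport, which sensory cilia share, had 19 of 32 above 0, with a median of 0.04, and 10 of 32 within set A (median -0.02) and 21 of 32 within set B (median 0.07). Kif3a, the kinesin motor subunit of this transport, measured 229 ± 81.9 and 203 ± 75.9 CPM (n = 6 and 5, SD).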

How the data were processed

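Each of 12 rats gave 1 stranded library. Deduplication and trimming by the authors used HTStream, alignment to mRatBN7.2 used STAR 2.7.11b, and strand-aware counting of exon reads per RefSeq gene name used featureCounts (Subread 2.0.1). The deposited values are raw counts per gene, not normalized, with the exon length of each gene. Reads lost to deduplication and reads shared by similar genes are thus already fixed in the counts.

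The members and gene lists were chosen with earlier results of these data known. Groups came from the labels. The whole table was fitted in edgeR 4.0.16 (R 4.3.3) by quasi-likelihood after TMM scaling. The model held treatment alone over 12 rats, filterByExpr kept 12325 genes (minimum count 10), tests were two-sided, and adjustment followed Benjamini and Hochberg. The SE given with edgeR estimates was derived as the absolute log2 fold change over the square root of the test's F value. CPM were scaled to TMM-adjusted totals, and log2 CPM used a prior count of 2. The fit was tested on simulated data that held no difference between library sets. That run thus does not show how the fit behaves with the sets found here. Libraries of 1 group differed by more than counting noise (smallest chi-square per gene 6.58 without rat 6), so none was counted as a repeat.

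The alternatives were DESeq2 1.42.0, RLE size factors, other filters, the library set as a covariate, and each rat left out. DESeq2 without rat 6 and the fits within and between sets were added after the data were seen. Named genes were those the rule names, the 2 most abundant tested members per length in each role, the 3 higher and 3 lower members of smallest unadjusted p, and the most abundant gene of each list. Hydin, which that choice also named, was not analysed here. Promoters came from RefSeq tables of GRCr8, another build than that of the counts, and Foxj1 and Ccdc153 were not among the 40 members matched. Plots used Python 3.11.15 and matplotlib 3.10.9.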

Additional observations from a re-analysis of the deposited data

Results flagged for a closer look

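In 4 members, all of the blast-control group, the library of rat 6 lay farther from the other 5 rats than Dixon's 95% limit allows. Cfap36 was at 443 CPM (28 counts) and Drc3 at 63.4 CPM (4 counts) in rat 6, above the other blast-controls. Dnai3 and Drc7 were at 0.0 CPM in rat 6, where 3 counts are worth 47.5 CPM, so these values lie under what that library can detect. Of 46 groups examined, chance alone would mark about 1 in 20. The highest value of Drc3 in any other rat was 22.6 CPM.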

How the results depend on the processing

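The 22 named members and the counts over the list were computed again under each alternative. No result of a test crossed its threshold, since no adjusted p in edgeR or DESeq2 was under 0.05 in any of them. The number of members with an unadjusted p under 0.05 was 7 with all rats and 12 with the library set as a covariate (10 without rat 6 as well), and lay between 4 (without rat 1) and 9 (without rat 7) when single rats were left out. The median log2 fold change lay between 0.098 (without rat 12) and 0.32 (without rat 7), with values over 0.25 also without rats 5, 19 and 32, and was 0.10 in DESeq2 with all rats. The count above 0 lay between 33 and 41 when single rats were left out, and was 42 with no filter on low counts and 43 in DESeq2 without rat 6, where more members are tested. Ccdc153 kept a log2 fold change of 0.89 to 1.18 and Drc7 of 0.49 to 0.61. The sign of Foxj1, Drc1, Drc3, Cfap36, Cfap298, Spag4, Spag7 or Rsph6a turned when a rat was left out, and that of Drc1 also in DESeq2 and of Cfap36 with the set as a covariate. The causes were not tested. The difference in summed level, 85.0 CPM with all rats, was 140 CPM without rat 6. RLE size factors and the other filters turned no sign of a named member. No paired analysis was possible because the groups share no replicate numbers. Depth limits rat 6 most, where 3 counts exceed the level of most members, and in other rats it limits low members such as Cfap157 in rat 9 and Rsph14 in rat 5, with 2 counts each.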

Other observations

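Genes of the meninges, the fibroblast layers around the brain, were among the lists counted for other cells. Of 13, 12 were above 0 in blast-boldine rats, with a median log2 fold change of 0.67 and 4 at an unadjusted p under 0.05 in edgeR, Slc6a13, Aldh1a2, Slc22a6 and Col3a1 (1.07% of all genes), and none after adjustment. Their summed level was 241 ± 128 CPM (n = 6, SD) against 176 ± 136 CPM (n = 5, SD). It was highest in rats 32, 7, 12, 1 and 17, at 452, 376, 299, 260 and 254 CPM, and 74.3 to 212 CPM in the others. These are the same 5 rats that held the most choroid plexus RNA. Igf2, the most abundant of these genes, was at 68.3 to 186 CPM in those 5 rats and at 14 to 42.1 CPM in the other 6.

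Markers of the other cell types lay closer to 0 than those of the meninges in the comparison of all rats. Astrocyte markers were above 0 for 1 of 8 genes, with a median of -0.09, and Slc1a2, the glial glutamate transporter, measured 1351 ± 49.9 and 1405 ± 275 CPM (n = 6 and 5, SD). Microglial markers were above 0 for 1 of 8, with a median of -0.16, and Csf1r measured 116 ± 50.5 and 128 ± 44.5 CPM. Oligodendrocyte markers were above 0 for 4 of 7 and neuronal markers for 6 of 12, with medians of 0.01 and 0.00, and without rat 6 for 0 of 7 and 8 of 12, with medians of -0.10 and 0.06. Within set A, oligodendrocyte markers were above 0 for 7 of 7 (median 0.13) and microglial markers for 4 of 8 (0.00). Within set B, without rat 6, these counts were 0 of 7 (-0.35) and 1 of 8 (-0.29). Astrocyte markers were above 0 for 3 of 8 in set A and 2 of 8 in set B, and neuronal markers for 7 of 12 in each. Mbp, of myelin, measured 1887 ± 646 and 2159 ± 675 CPM, and Snap25, of the synapse, 1066 ± 89.7 and 1180 ± 280 CPM. Tanycyte and subventricular genes, from the cells that neighbour the ependyma, were above 0 for 6 of 9, with a median of 0.07. Their log2 fold changes ran from -0.60 to 0.55. At an unadjusted p under 0.05 in edgeR, 1 was higher and 1 lower (1.07% of all genes). Within set A 8 of 9 were above 0 (median 0.10), and within set B, without rat 6, 4 of 9 (median -0.09). S100b, the most abundant tanycyte and subventricular gene, measured 715 ± 240 and 802 ± 204 CPM. None of these lists held a gene that passed adjustment in edgeR.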
